A study of Mus musculus with 9 samples.

Results

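The mitosis and spindle genes are 38 genes that act in the G2 phase, at the kinetochore, in the spindle and in cytokinesis, and they were taken by symbol from the deposited table of raw counts. All 38 were among the 28111 genes of the table, and all 38 passed the filter on low counts that left 14817 genes for testing. The cells were regulatory T cells induced from mouse T cells (iTreg), all of strain C57BL/6J, and polyadenylated RNA was sequenced. There were 4 libraries of the Glut1Tg genotype, which carries a transgene for the glucose transporter Glut1 (gene Slc2a1), and 5 WT libraries. The labels also place each library in a mouse group: Glut1Tg replicate 1 and WT replicates 2, 4 and 5 are in mouse group 2, and Glut1Tg replicates 2, 3 and 4 and WT replicates 1 and 3 are in mouse group 1. The sources used here do not say what the mouse groups are, which promoter drives the transgene, how old the mice were, or how and for how long the cells were cultured. The labels do not say whether replicates are separate animals or cultures; p-values therefore measure only how far these libraries spread, which may be technical.

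A dividing cell makes most of these transcripts late in its cycle, from the end of DNA replication until it divides, and resting T cells hold little of them. Activated T cells divide fast, so the summed level of these RNAs in a culture is widely used as a sign of cycling cells. The genes share a mode of control: the MuvB complex, with B-Myb and FoxM1, turns them on in G2, and in resting cells the same MuvB core with pocket proteins holds them off, at a promoter element called the CHR (cell cycle genes homology region) that often lies close to CCAAT boxes. In bulk RNA, fewer cells of a type and less RNA per cell cannot be told apart.

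RefSeq promoters on build GRCm38.p6, from 250 bases before to 50 bases after each gene's start, were matched by symbol for 32 of the 38 genes. The CHR was searched on both strands as TTTGAA. Its variant was searched as TTTAAA, which reads the same on both strands. The CCAAT box was searched by those letters, and 2 of the 35 member entries held overlapping matches (a pair of CCAAT boxes in Ube2c, and a CHR with a CCAAT box in Cdca8). TTTGAA was present in 25 of the 32 promoters (78.1%), against 20.2% of the 27025 symbols with a promoter and 14.4% of the 9989 tested genes with one. CCAAT was also present in 25 of 32, against 41.1% of all promoters. Both together were present in 22 of 32 (68.8%), against 7.97% of all promoters and 5.91% of those of tested genes, and either form of the CHR was present in 28 of 32 (87.5%), against 30.6%. TATAAA was found in 1 of 32 (3.12%), against 15.7% of all promoters, and the E2F core GCGCGAA in 2 of 32 (6.25%), against 1.81% of all promoters and 3.55% of those of tested genes. A match is a description of the letters and not a binding site. In many of the genes, among them Plk1, Spc25, Bub1b, Kif23 and Ttk, TTTGAA lay only after the start. 6 windows of 150 bases that end just before the RefSeq start are shown as examples, and so leave out matches after it. They are Cdc20 at chr4:118437344-118437493 (minus strand), Cdk1 at chr10:69352913-69353062 (minus), Kif11 at chr19:37376232-37376381 (plus), Mki67 at chr7:135716380-135716529 (minus), Ccnb1 at chr13:100786487-100786636 (minus) and Nuf2 at chr1:169531465-169531614 (minus), each written 5′ to 3′ on the gene's strand with the CHR, its variant and the CCAAT box in capitals; on the other strand the CHR reads TTCAAA and the box reads ATTGG.
Cdc20: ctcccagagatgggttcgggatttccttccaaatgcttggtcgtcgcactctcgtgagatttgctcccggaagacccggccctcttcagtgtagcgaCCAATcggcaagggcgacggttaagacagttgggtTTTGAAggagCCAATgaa
Cdk1: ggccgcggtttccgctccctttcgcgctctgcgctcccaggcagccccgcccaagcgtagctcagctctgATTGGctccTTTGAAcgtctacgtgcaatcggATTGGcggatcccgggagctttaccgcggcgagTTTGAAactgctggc
Kif11: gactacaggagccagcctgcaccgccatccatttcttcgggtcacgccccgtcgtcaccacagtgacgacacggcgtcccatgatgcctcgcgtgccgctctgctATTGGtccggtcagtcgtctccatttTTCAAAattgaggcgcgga
Mki67: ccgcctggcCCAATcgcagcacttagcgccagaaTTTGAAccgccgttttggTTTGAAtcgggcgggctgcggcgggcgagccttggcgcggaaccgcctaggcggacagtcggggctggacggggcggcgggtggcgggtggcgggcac
Ccnb1: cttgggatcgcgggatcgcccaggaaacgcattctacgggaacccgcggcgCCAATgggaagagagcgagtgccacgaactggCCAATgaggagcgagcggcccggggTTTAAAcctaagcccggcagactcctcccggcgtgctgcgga
Nuf2: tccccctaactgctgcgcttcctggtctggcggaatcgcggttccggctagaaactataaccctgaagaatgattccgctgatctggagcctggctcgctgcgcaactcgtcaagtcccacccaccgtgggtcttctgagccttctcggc
The leftmost base of TTTGAA lay 18 bases before the start in Cdc20, 19 in Kif11, and 71 and 15 in Cdk1, with a CCAAT box on the 5′ side in each. Mki67 had 2 copies, at 116 and 98 bases, beside a single CCAAT box in the window. Ccnb1 had the TTTAAA form at 42 bases with 2 CCAAT boxes before it. Nuf2 held none of these motifs, and Nusap1 and Mad2l1 held none in their whole entries either.

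Total counts were 20881035 to 31196428 per library. Slc2a1 averaged 373 ± 120.7 CPM (counts scaled to a common library size) in Glut1Tg and 42.1 ± 12.6 CPM in WT libraries (SD, n = 4 and 5; log2 fold change 2.92, edgeR adjusted p = 0.000903), and all 4 Glut1Tg libraries were above all 5 WT libraries. Foxp3, the lineage factor of regulatory T cells, averaged 747 ± 93.3 CPM in Glut1Tg and 977 ± 135.5 CPM in WT libraries (edgeR adjusted p = 0.681). The 10 T cell and regulatory T cell markers summed to 3997 to 7277 CPM in Glut1Tg and 4779 to 6986 CPM in WT libraries. RNA of other blood cells was present in some libraries. Glut1Tg replicate 3 stood apart, with 2463 CPM over 9 mast cell and basophil markers, 442 CPM over 11 myeloid markers and 1039 CPM over 10 erythroid and platelet markers.

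The mitotic genes were expressed in every library, but their level differed between libraries by up to 10.2-fold. Their share of all counts was 1.02%, 0.2%, 0.308% and 0.331% in Glut1Tg replicates 1 to 4, against 0.296%, 1.06%, 0.289%, 0.331% and 0.531% in WT replicates 1 to 5. Glut1Tg replicate 1 and WT replicate 2, both of mouse group 2, were far above the others, WT replicate 5 (also mouse group 2) came next, and Glut1Tg replicate 2 was lowest. For every one of the 38 genes, Glut1Tg replicate 1 and WT replicate 2 were the highest pair of libraries, as they were for 22.6% of all genes tested. WT replicate 5 was above WT replicate 4 in 38 of 38 (48.3% of all genes tested) and above all 5 libraries of mouse group 1 in 34 (25.8%). WT replicate 4, the remaining library of mouse group 2, was above all 5 libraries of mouse group 1 in only 10 of 38 (22.3%). Glut1Tg replicate 2 was the lowest library in 36 of 38 (9.77%); Bub3 and Ect2 were the exceptions. By Dixon's ratio, the gap to the next library over the range of the genotype, Glut1Tg replicate 1 stood apart above the other Glut1Tg libraries in 17 of 38 (7.23% of all genes tested) and WT replicate 2 above the other WT libraries in 19 of 38 (6.96%). The ratio of the highest to the lowest library had a median of 5.35 over the 38 genes, against 2.53 over the 14638 tested genes with no library at 0, and it was 2.35 over the 38 genes among the 7 libraries other than Glut1Tg replicate 1 and WT replicate 2.

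**Figure D1:**
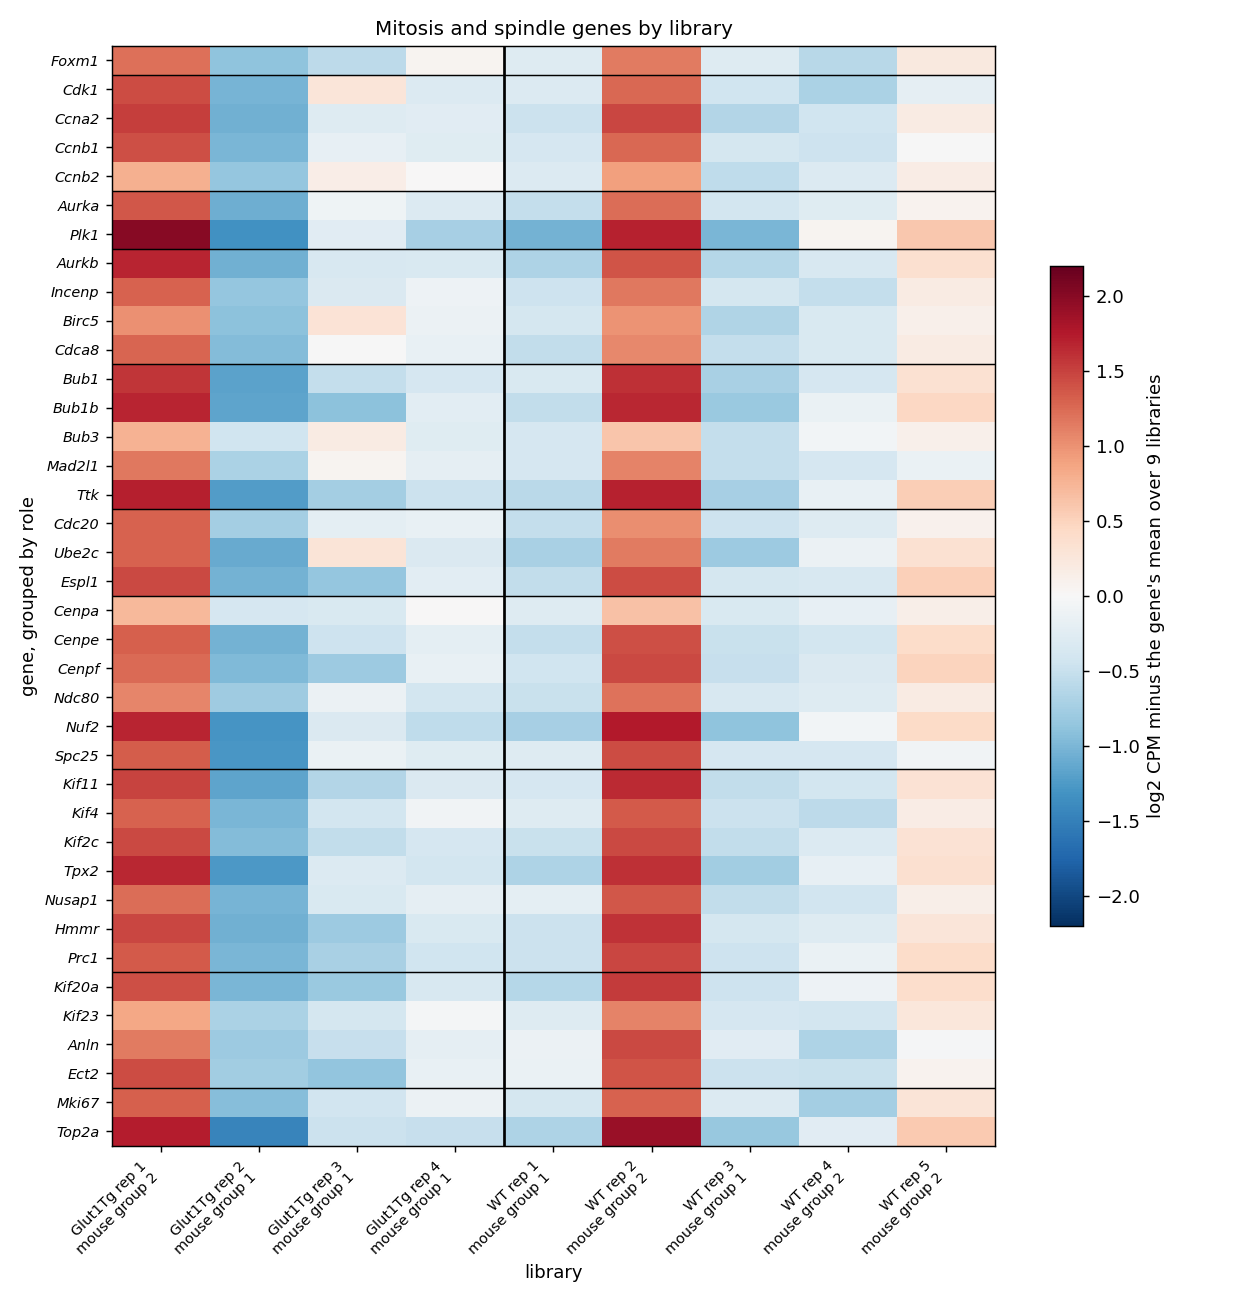
Each cell is the log2 CPM of 1 gene (rows, grouped by role) in 1 library (columns, Glut1Tg left of the line and WT right), minus the gene's mean over the 9 libraries; red is above and blue below that mean. The columns of Glut1Tg replicate 1 and WT replicate 2 are red in all 38 rows, and the column of Glut1Tg replicate 2 is blue in all of them.

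Per kilobase of the principal transcript (the longest one tagged as principal in GENCODE M21), Birc5, the survivin subunit of the chromosomal passenger complex, was highest at a mean of 134 CPM per kb over the 9 libraries. Top2a (123), Cenpa (118) and Ube2c (115) followed, and Anln (6.19), Ttk (8.44), Cenpf (9.16) and Ect2 (9.30) were lowest. Neighbours in this order were within the range of the libraries: Birc5 ranged from 65 to 245 and Top2a from 32.9 to 336 CPM per kb.

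Foxm1, the forkhead transcription factor that activates G2 and mitotic genes, had 245, 57.4, 71.6 and 111 CPM in Glut1Tg replicates 1 to 4, against 87.2, 234, 87.1, 69.9 and 123 CPM in WT replicates 1 to 5. It was highest in the pair of libraries named above and lowest in Glut1Tg replicate 2, and both genotypes spanned nearly the same range. Its mouse group difference did not pass the test (168 ± 85.6 CPM in mouse group 2 and 82.8 ± 19.9 CPM in mouse group 1; log2 fold change 1.07, SE 0.36, edgeR adjusted p = 0.0564). For the members described next, calls between mouse groups depended on Glut1Tg replicate 1: without it, 0 of the 38 genes were called.

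The kinase that drives entry into mitosis and its cyclins were highest in Glut1Tg replicate 1 and WT replicate 2 and lowest in Glut1Tg replicate 2, with other orders between. Cdk1, the kinase itself, had 220.2, 40.1, 98.8 and 66.1 CPM in Glut1Tg replicates 1 to 4, against 66.7, 195, 60.4, 50.5 and 70.9 CPM in WT replicates 1 to 5. Ccna2, the cyclin of S and G2 phase, had 362, 60.9, 104 and 107 CPM in Glut1Tg replicates 1 to 4, against 91.2, 349, 80.7, 93.4 and 144 CPM in WT replicates 1 to 5. For Cdk1 the library next to the high pair was Glut1Tg replicate 3, at 98.8 CPM, and for Ccna2 it was WT replicate 5. Ccnb1, a B-type cyclin that activates Cdk1 at mitotic entry, had 177, 33, 58.5 and 55.2 CPM in Glut1Tg replicates 1 to 4, against 51.6, 159, 50.6, 48.4 and 65.8 CPM in WT replicates 1 to 5. Ccnb2, the other B-type cyclin, had 210.1, 67.7, 135 and 122 CPM in Glut1Tg replicates 1 to 4, against 98.2, 228, 82.8, 99.3 and 136 CPM in WT replicates 1 to 5. For Ccnb2 the libraries lay closer together, and Glut1Tg replicate 3 and WT replicate 5 were nearly equal. Between mouse groups, Ccna2 (log2 fold change 1.51, SE 0.38, edgeR adjusted p = 0.0219) and Ccnb1 (log2 fold change 1.25, SE 0.37, edgeR adjusted p = 0.0386) passed the test, with higher means in mouse group 2. Cdk1 (log2 fold change 1.12, SE 0.43, edgeR adjusted p = 0.0847) and Ccnb2 (log2 fold change 0.84, SE 0.28, edgeR adjusted p = 0.0579) did not.

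Plk1, the Polo kinase that acts on centrosomes, kinetochores and the cleavage site, differed most between mouse groups. It had 198, 19.8, 41.8 and 30 CPM in Glut1Tg replicates 1 to 4, against 24.1, 160.4, 24.9, 51.9 and 75.3 CPM in WT replicates 1 to 5. All 4 libraries of mouse group 2 were above all 5 of mouse group 1, and the lowest of them, WT replicate 4, had 51.9 CPM. Plk1 averaged 121 ± 69.1 CPM in mouse group 2 and 28.1 ± 8.47 CPM in mouse group 1, SD with n = 4 and 5 (log2 fold change 2.26, SE 0.36, edgeR adjusted p = 0.00433). Aurka, the Aurora kinase of centrosomes and spindle poles, had 119, 22, 43.3 and 37.5 CPM in Glut1Tg replicates 1 to 4, against 32, 109, 35, 38.5 and 48.9 CPM in WT replicates 1 to 5. WT replicate 4 and Glut1Tg replicates 3 and 4 were close to each other for Aurka, so the mouse groups overlapped (log2 fold change 1.3, SE 0.34, edgeR adjusted p = 0.0257).

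In the chromosomal passenger complex, which corrects faulty attachments of chromosomes to the spindle, all 4 subunits were called higher in mouse group 2. Of all genes tested, 13.1% were. Aurkb, the kinase, had 197, 29.9, 48.5 and 49 CPM in Glut1Tg replicates 1 to 4, against 38.9, 162, 40, 48.7 and 78.8 CPM in WT replicates 1 to 5. Incenp, its scaffold, had 362, 82.5, 119 and 136 CPM in Glut1Tg replicates 1 to 4, against 108, 330.3, 114, 104 and 167 CPM in WT replicates 1 to 5. In both, Glut1Tg replicate 1 was highest, Glut1Tg replicate 2 lowest, and WT replicate 4 lay among the libraries of mouse group 1. Birc5 (survivin) had 232, 61.6, 141 and 106 CPM in Glut1Tg replicates 1 to 4, against 87.8, 228, 72.8, 90.9 and 124 CPM in WT replicates 1 to 5. Cdca8 (borealin) had 193, 41.1, 78.4 and 70.5 CPM in Glut1Tg replicates 1 to 4, against 54.5, 166, 55.2, 62.5 and 89.5 CPM in WT replicates 1 to 5. In Birc5, Glut1Tg replicate 3 of mouse group 1 was above WT replicates 4 and 5 of mouse group 2. The mouse group log2 fold changes were 1.66 for Aurkb (SE 0.35, edgeR adjusted p = 0.0118), 1.19 for Incenp (adjusted p = 0.0321), 0.99 for Birc5 (adjusted p = 0.0487) and 1.21 for Cdca8 (adjusted p = 0.0233).

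The spindle checkpoint, which holds back anaphase until all chromosomes are attached, held both wide and narrow responses. Ttk, the kinase at its head, had 60.2, 7.81, 11 and 13.3 CPM in Glut1Tg replicates 1 to 4, against 12.2, 59.5, 11, 16.4 and 26.6 CPM in WT replicates 1 to 5. Bub1b (BubR1), part of the complex that inhibits Cdc20, had 261, 36.7, 43.4 and 69.7 CPM in Glut1Tg replicates 1 to 4, against 56.3, 257, 46.4, 73.9 and 112 CPM in WT replicates 1 to 5. In both, all 4 libraries of mouse group 2 were above all 5 of mouse group 1. Bub1, the checkpoint kinase at the kinetochore, had 120.0, 17.9, 28 and 31.2 CPM in Glut1Tg replicates 1 to 4, against 32.3, 124, 24.6, 31.2 and 51.1 CPM in WT replicates 1 to 5. Mad2l1 (Mad2), which binds Cdc20, had 156, 43.4, 73.5 and 61.1 CPM in Glut1Tg replicates 1 to 4, against 54.5, 149, 48.8, 54.4 and 63.6 CPM in WT replicates 1 to 5. Bub3, their partner that also works outside mitosis, had 226, 97.4, 149 and 110.4 CPM in Glut1Tg replicates 1 to 4, against 103, 201, 92.4, 126 and 142 CPM in WT replicates 1 to 5. Bub3 differed little for this group: its highest library was 2.44 times its lowest, against 7.72 times for Ttk, and Glut1Tg replicate 3 was above WT replicates 4 and 5. All 5 checkpoint genes were called higher in mouse group 2, against 13.1% of all genes tested. Their log2 fold changes were 1.93 for Ttk (edgeR adjusted p = 0.00866), 1.87 for Bub1b (0.00989), 1.66 for Bub1 (0.0186), 1.03 for Mad2l1 (0.0443) and 0.78 for Bub3 (0.019).

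Of the genes that trigger anaphase, all 3 were called higher in mouse group 2, against 13.1% of all genes tested. Cdc20, the activator of the anaphase-promoting complex (APC/C), had 280.2, 68.3, 98 and 102 CPM in Glut1Tg replicates 1 to 4, against 79.2, 231, 83, 93.7 and 122 CPM in WT replicates 1 to 5. Ube2c, the ubiquitin-conjugating enzyme of that complex, had 234, 44, 116 and 76.1 CPM in Glut1Tg replicates 1 to 4, against 58, 210.2, 54.5, 86.7 and 119 CPM in WT replicates 1 to 5. Glut1Tg replicate 3 was above WT replicate 4 for both, and for Ube2c it almost reached WT replicate 5. Espl1 (separase), which cuts cohesin, had 153, 27.4, 31 and 47.6 CPM in Glut1Tg replicates 1 to 4, against 38.3, 151, 42.7, 44.1 and 80.1 CPM in WT replicates 1 to 5. Here Glut1Tg replicate 3 was the next to lowest library. Their log2 fold changes between mouse groups were 1.19 for Cdc20 (edgeR adjusted p = 0.0182), 1.41 for Ube2c (0.0166) and 1.55 for Espl1 (0.0159).

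At the kinetochore, Nuf2 and Ndc80 form the arm that grips microtubules. Nuf2 had 124, 15.8, 31.1 and 26.2 CPM in Glut1Tg replicates 1 to 4, against 23.3, 130.1, 20.9, 37.2 and 51.9 CPM in WT replicates 1 to 5. Ndc80 had 124, 34.2, 53.9 and 44.5 CPM in Glut1Tg replicates 1 to 4, against 41.9, 135, 46.4, 48.7 and 67 CPM in WT replicates 1 to 5. Spc25, a subunit of the same complex, had 72.2, 11.8, 25.9 and 23.8 CPM in Glut1Tg replicates 1 to 4, against 23.6, 77.2, 22.2, 22 and 27 CPM in WT replicates 1 to 5. Nuf2 separated the mouse groups without overlap (log2 fold change 1.98, SE 0.38, edgeR adjusted p = 0.00806), Ndc80 rose with overlap (log2 fold change 1.15, SE 0.3, edgeR adjusted p = 0.0246), and Spc25 did not pass (log2 fold change 1.26, SE 0.41, edgeR adjusted p = 0.0531). Cenpe, a kinesin of the kinetochore, had 226, 44.4, 65.9 and 78.2 CPM in Glut1Tg replicates 1 to 4, against 63.4, 242, 64.8, 68.2 and 119.7 CPM in WT replicates 1 to 5. Cenpf, a large protein of its outer layer, had 202, 43.7, 49.1 and 76.3 CPM in Glut1Tg replicates 1 to 4, against 63.1, 233, 60.3, 68.8 and 120.5 CPM in WT replicates 1 to 5. Cenpa, the histone variant that marks centromeres, had 272, 129, 132 and 168 CPM in Glut1Tg replicates 1 to 4, against 137, 258, 131, 147 and 182 CPM in WT replicates 1 to 5. Cenpa had the smallest range of the 38 genes: its highest library was 2.11 times its lowest. Its mouse group difference was the smallest too (log2 fold change 0.69, SE 0.19, edgeR adjusted p = 0.0277), beside 1.43 for Cenpe (edgeR adjusted p = 0.02) and 1.45 for Cenpf (0.0178).

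All 7 spindle motors and microtubule-associated proteins were called higher in mouse group 2, against 13.1% of all genes tested. Kif11, the motor that pushes spindle poles apart, had 428, 68, 96.7 and 122 CPM in Glut1Tg replicates 1 to 4, against 118, 474, 104, 115 and 189 CPM in WT replicates 1 to 5. Prc1, which bundles the microtubules of the midzone, had 199, 38.7, 47.5 and 57.8 CPM in Glut1Tg replicates 1 to 4, against 56.4, 216, 57, 70.8 and 103 CPM in WT replicates 1 to 5. For Prc1 every library of mouse group 2 was above every library of mouse group 1, while for Kif11 WT replicate 4 lay below Glut1Tg replicate 4 and WT replicate 1. Tpx2, which activates Aurora A on the spindle, had 337, 44.2, 86.4 and 80.6 CPM in Glut1Tg replicates 1 to 4, against 66.3, 324, 62.5, 94 and 136 CPM in WT replicates 1 to 5. Kif2c, which shortens microtubules at centromeres, had 131, 24.8, 32.8 and 37.1 CPM in Glut1Tg replicates 1 to 4, against 34, 132, 33, 39 and 59.6 CPM in WT replicates 1 to 5. Tpx2 and Kif2c both separated the mouse groups without overlap. Hmmr, a protein of spindle microtubules, had 161, 27.9, 33.4 and 45.6 CPM in Glut1Tg replicates 1 to 4, against 41.6, 173, 44.4, 47.8 and 69.4 CPM in WT replicates 1 to 5. It separated them too. Nusap1, a protein that stabilises spindle microtubules, had 288, 60.4, 97.9 and 107 CPM in Glut1Tg replicates 1 to 4, against 106, 316, 84.4, 91.8 and 135 CPM in WT replicates 1 to 5. Kif4, a motor that moves along with chromosome arms, had 148, 29.9, 45.6 and 57.2 CPM in Glut1Tg replicates 1 to 4, against 49.6, 154, 43.4, 40.2 and 67.1 CPM in WT replicates 1 to 5. In Nusap1 and Kif4 WT replicate 4 fell within the range of mouse group 1. The 7 log2 fold changes ran from 1.24 in Nusap1 (edgeR adjusted p = 0.0378) to 1.81 in Tpx2 (0.0107).

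Among the cytokinesis genes, Kif20a, Kif23 and Ect2 were higher in mouse group 2 and Anln did not pass. Kif20a, a motor of the midzone, had 202, 37.5, 43.1 and 59.2 CPM in Glut1Tg replicates 1 to 4, against 48.9, 219.5, 55, 70.2 and 99.1 CPM in WT replicates 1 to 5. Kif23, the motor subunit of centralspindlin, had 153, 52.4, 64.8 and 82.2 CPM in Glut1Tg replicates 1 to 4, against 69.4, 180.4, 65.6, 64.5 and 101 CPM in WT replicates 1 to 5. Kif20a separated the mouse groups, with WT replicate 4 above the highest library of mouse group 1, whereas Kif23 did not. Ect2, the exchange factor that activates RhoA at the cleavage site, had 85.8, 18.8, 17.4 and 28.6 CPM in Glut1Tg replicates 1 to 4, against 28.9, 82.8, 23.1, 22.6 and 33.8 CPM in WT replicates 1 to 5. Anln (anillin), a scaffold of the contractile ring, had 54.1, 14, 17.3 and 21.5 CPM in Glut1Tg replicates 1 to 4, against 22.4, 67, 20.6, 15.4 and 24.2 CPM in WT replicates 1 to 5. For Anln WT replicate 4 was below all but Glut1Tg replicate 2. The log2 fold changes were 1.64 for Kif20a (edgeR adjusted p = 0.0105), 0.94 for Kif23 (0.0427), 1.3 for Ect2 (0.0408) and 1.08 for Anln (0.0793).

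Mki67 and Top2a act on mitotic chromosomes, and both were higher in mouse group 2. Mki67, the Ki-67 protein that coats chromosomes and is the usual stain for cycling cells, had 1652, 346, 496 and 606 CPM in Glut1Tg replicates 1 to 4, against 507, 1621, 535, 394 and 808 CPM in WT replicates 1 to 5. Top2a, the topoisomerase that untangles sister chromatids, had 1556, 172, 336 and 329 CPM in Glut1Tg replicates 1 to 4, against 293, 1752, 262, 395 and 697 CPM in WT replicates 1 to 5. The pair of high libraries stood together in both genes, but WT replicate 4 was below every library other than Glut1Tg replicate 2 for Mki67 and above all of mouse group 1 for Top2a. Top2a had the widest range of the 38 genes, its highest library being 10.2 times its lowest. The mouse group log2 fold changes were 1.22 for Mki67 (SE 0.39, edgeR adjusted p = 0.0471) and 2.05 for Top2a (SE 0.42, adjusted p = 0.0104).

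**Figure D2:**
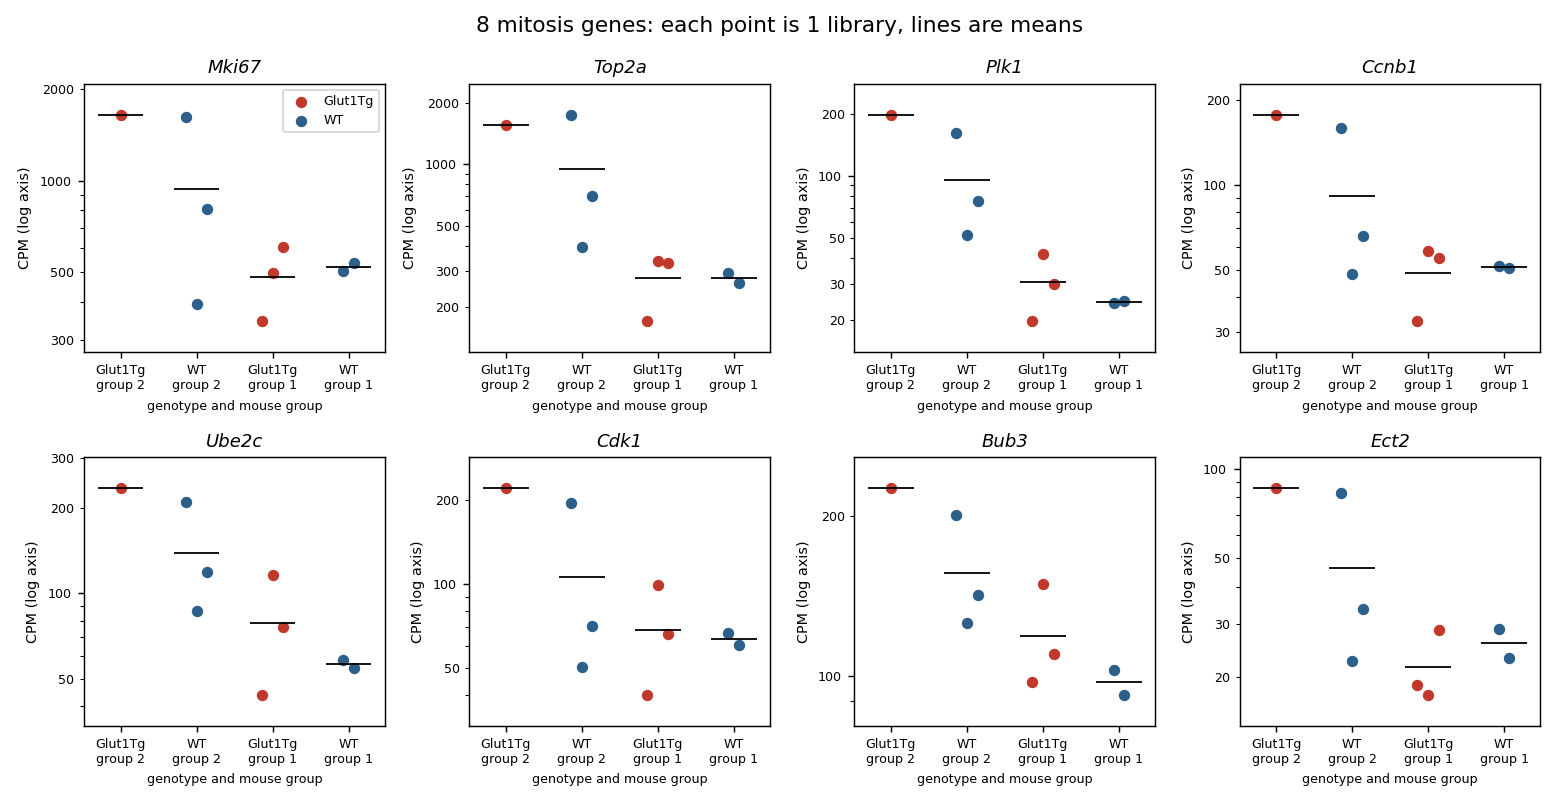
CPM on log axes of 8 of the genes, with 1 point per library in the 4 combinations of genotype and mouse group; horizontal lines are arithmetic means. WT replicate 2 is the high point of the WT libraries of mouse group 2 in each panel, and the only Glut1Tg library of mouse group 2 lies beside it.

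Across all 38 genes, 33 were higher in mouse group 2 at an adjusted p under 0.05 and 0 were lower, in edgeR's quasi-likelihood test with genotype as a term. Of all genes tested, 13.1% were called higher and 11% lower. The median log2 fold change was 1.3 (0.69 to 2.26), against -0.01 over all genes tested. The mouse groups did not overlap in 10 of 38 (26.3%), against 10.5% of all genes tested, and WT replicate 4 lay within the range of mouse group 1 for the others. Within WT alone, WT replicates 2, 4 and 5 were all above WT replicates 1 and 3 in 24 of 38 (22.5% of all genes tested). The calls rested on few libraries. Without Glut1Tg replicate 1, the only Glut1Tg library of mouse group 2, 0 of the 38 were called and the median log2 fold change was 0.95. In that fit 22 of the 38 had an unadjusted p under 0.05 in edgeR, against 3414 of the 15128 genes tested there, in either direction. Over all genes tested the calls higher in mouse group 2 fell to 218 in that fit, against 1946 with that library. Without Glut1Tg replicate 2 or 4, 23 and 22 of the 38 were called, against 8.67% and 8.15% of all genes tested called higher in those fits. Without WT replicate 1, 2 or 3, 19, 21 and 14 were called, against 7.13%, 7.38% and 6.9%. Without both high libraries 0 were called, against 1.38%, and the median of the 38 was 0.46. The fold change was positive for all 38 genes in every fit that left out a single library, and for 36 of 38 without both high libraries.

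Between genotypes, none of the 38 genes was called. In edgeR with mouse group as a term, 0 of 38 passed an adjusted p of 0.05 (0.00675% of all genes tested did, which is Slc2a1 alone), and DESeq2 and limma-voom also called 0 of 38. At an unadjusted p under 0.05, 0 of the 38 were higher in Glut1Tg, against 4.5% of all genes tested. The smallest unadjusted p was 0.0726, in Bub3, with a log2 fold change of 0.38 (SE 0.19, edgeR adjusted p = 0.681; 95% interval of the fold 0.971 to 1.75). The genotypes did not overlap in 0 of 38 genes, against 1.59% of all genes tested. Mki67 averaged 775 ± 594 CPM in Glut1Tg and 773 ± 498 CPM in WT libraries (SD, n = 4 and 5). Its fold change was 1.2 with a 95% interval of 0.656 to 2.19. For Top2a the fold change was 1.22 with an interval of 0.637 to 2.34, and for Plk1, the largest of the 38, it was 1.53 with an interval of 0.882 to 2.65.

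The genotype fold changes were all above 0 on the log2 scale (38 of 38, median 0.27, range 0.07 to 0.61; 52.4% of all genes tested were positive, and with scaling by library totals 37 of 38 were), but their direction rested on Glut1Tg replicate 1. Without that library 15 of 38 were positive and the median was -0.05. Within mouse group 1, with 3 Glut1Tg and 2 WT libraries, 17 of 38 were positive, the median was -0.03 and the genotypes did not overlap in 0 of 38, against 22.2% of all genes tested. Within mouse group 2, where a single Glut1Tg library is set against 3 WT libraries, 38 of 38 were positive and the median was 0.75; that library is the one already described as high in all 38 genes, so this is no separate result. With no mouse group term the median was -0.02. The genotype difference was not shown to differ between mouse groups: the interaction called 0 of 38 (0% of all genes tested), 0 of 38 had an unadjusted p under 0.05 (5.3% of all genes tested), DESeq2 and limma-voom called 0 of 38, and the median interaction log2 value was 0.82 (0.19 to 1.15).

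**Figure D3:**
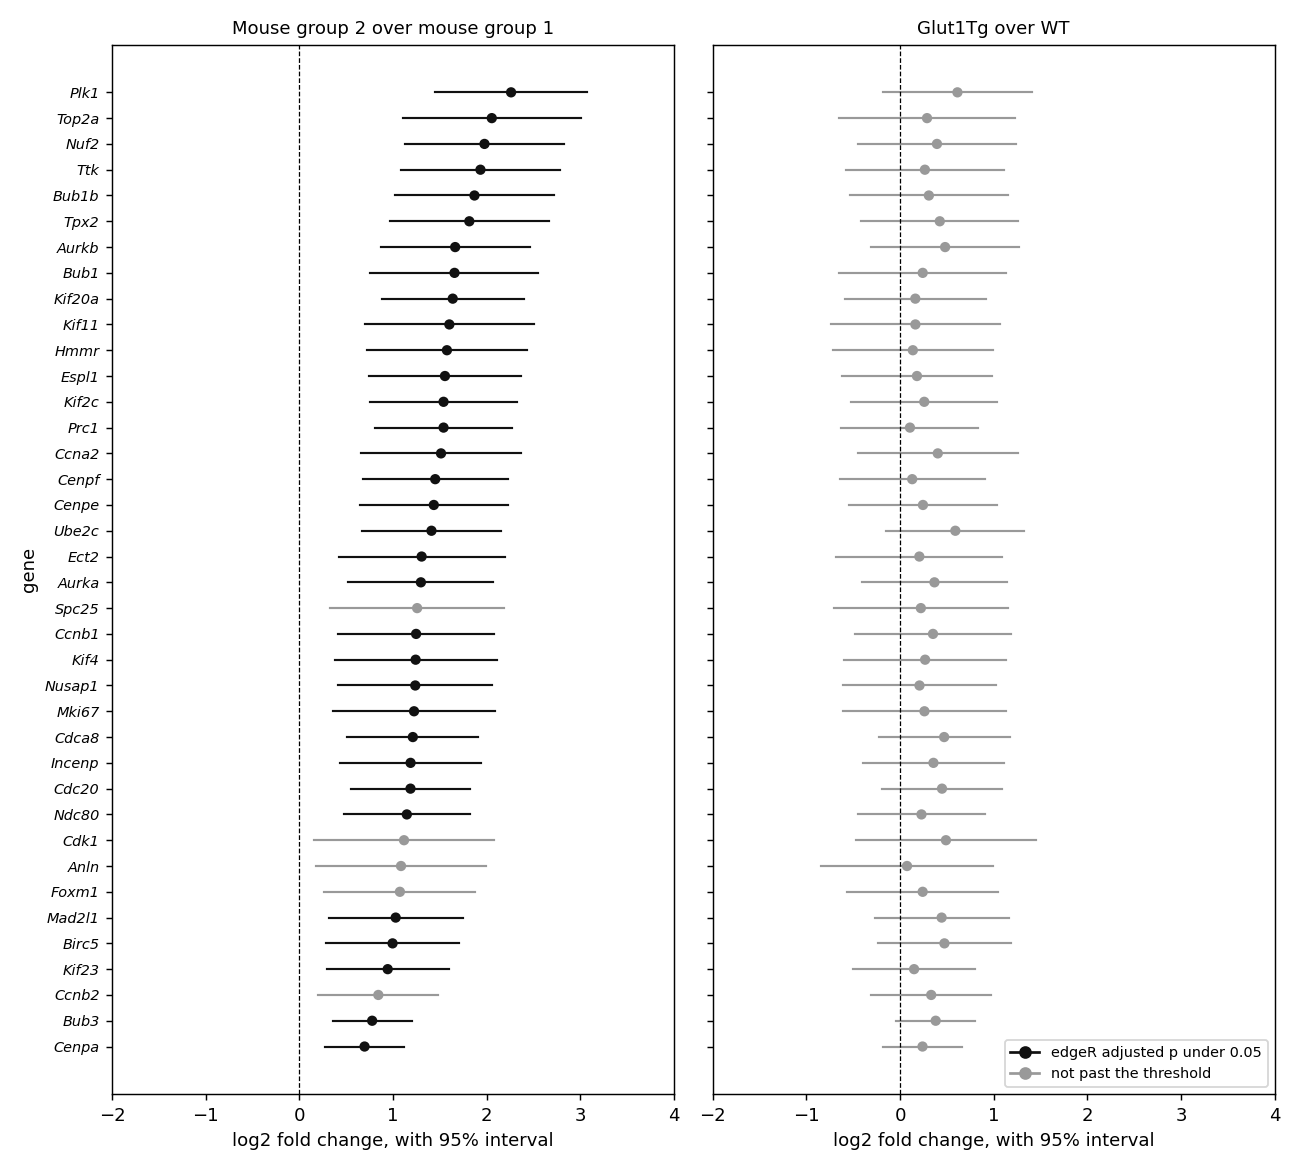
Log2 fold changes of the 38 genes with 95% intervals from edgeR, for mouse group 2 over mouse group 1 (left) and Glut1Tg over WT (right), sorted by the left panel; black marks an adjusted p under 0.05. In the left panel 33 genes are black, from Cenpa at 0.69 to Plk1 at 2.26, and in the right panel every interval includes 0.

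The 38 genes moved together to a high degree. The log2 CPM of each gene was correlated with the mean of the other 37 over the 9 libraries, given as a description since the libraries are shared and Glut1Tg replicate 1 and WT replicate 2 stand far from the rest: the median Pearson r was 0.983 and the lowest was 0.92, in Bub3. Over the other 7 libraries the median was 0.903 and the lowest was 0.557, in Cdk1. Mad2l1 (0.703), Anln (0.684), Bub3 (0.674) and Ect2 (0.673) were also loose there, while Ccna2 and Cenpe (0.984 each) and Aurkb (0.981) stayed close to the mean.

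With Glut1Tg replicate 3 also left out, a choice made after seeing the data, the median over 6 libraries was 0.952; r was 0.781 in Cdk1 and 0.708 in Anln, the lowest. Compared with the mean log2 CPM of the other 4 libraries of mouse group 1, Glut1Tg replicate 3 was 1.02 higher in Ube2c, 0.82 in Birc5, 0.79 in Cdk1 and 0.77 in Plk1, but -0.49 in Ect2, -0.30 in Espl1 and -0.28 in Cenpf. In all, 26 of 38 were above the mean of the others, with a median deviation of 0.15, against 0.017 over the 14760 tested genes with a length. Those other libraries include Glut1Tg replicate 2, the lowest of the 9 in 36 of the 38 genes, which lowers their mean. The 10 genes furthest above had a median principal transcript of 2052 bases, against 3989 bases in the 10 furthest below. There were exceptions: Cdk1 (4375 bases) and Mad2l1 (7557 bases) were among the 10 above, and Cenpa (1466 bases) was among the 10 below. Spearman's rho between that deviation and transcript length was -0.539 over the 38 genes, and -0.309 over 14760 tested genes with a length, so the sign was the same over all genes. In the other 4 libraries of mouse group 1, each set against the rest, rho over the 38 genes was 0.0542 to 0.484. That rest includes Glut1Tg replicate 3, so these values are not a separate contrast to it. The negative relation was not limited to Glut1Tg replicate 3: in mouse group 2, by the same measure, rho over the 38 genes was -0.659 in WT replicate 4 (-0.175 over all genes) and -0.00208 to 0.558 in the other 3 libraries. WT replicate 4 was there set against a mean that holds Glut1Tg replicate 1 and WT replicate 2. Glut1Tg replicate 3 is the library with the most mast cell, myeloid and platelet RNA, and the part of that RNA and of transcript length in the values was not tested.

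**Figure D4:**
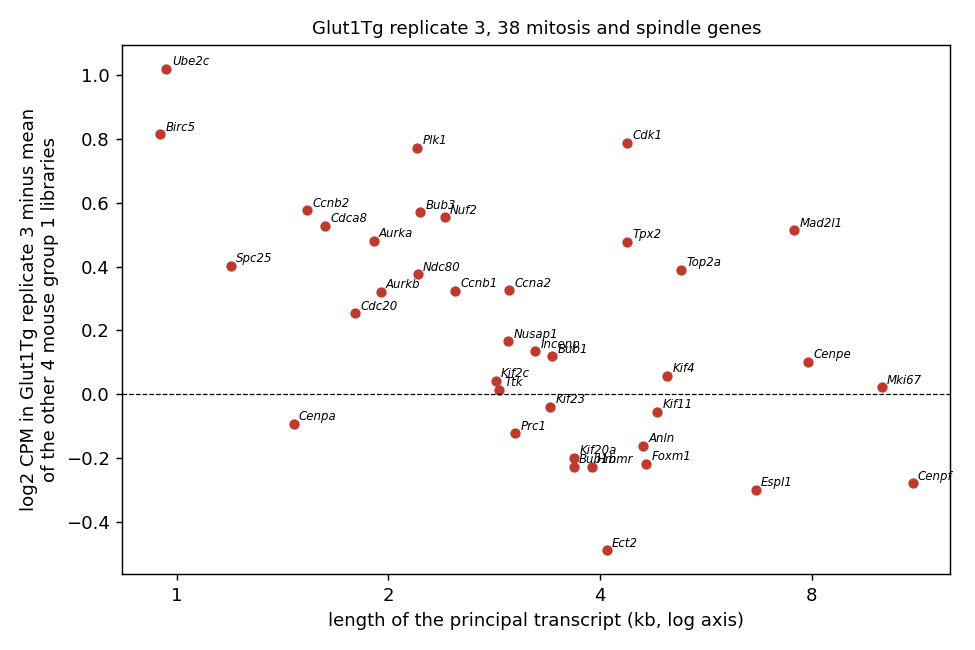
Each point is 1 of the 38 genes: its log2 CPM in Glut1Tg replicate 3 minus the mean of the other 4 libraries of mouse group 1, against the length of its principal transcript in kb (log axis). Ube2c and Birc5, with short transcripts, are at 1.02 and 0.82, and Ect2, Espl1 and Cenpf, with longer ones, are below 0. Cdk1 and Mad2l1 also have longer transcripts but are at 0.79 and 0.51.

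Other lists of cell division genes were also highest on average in Glut1Tg replicate 1 and WT replicate 2. Of 37 tested genes of DNA replication and nucleotide supply, 22 were called higher in mouse group 2 and 0 lower, with a median log2 fold change of 1.4, against 13.1% and -0.01 over all genes tested. Rrm2, a subunit of ribonucleotide reductase, had 450.1, 32.8, 94.2 and 58.8 CPM in Glut1Tg replicates 1 to 4, against 46.8, 379, 45.2, 70.1 and 113 CPM in WT replicates 1 to 5. Pold1, the catalytic subunit of polymerase delta, had a log2 fold change of 1.62 (edgeR adjusted p = 0.0116), Pola2, of the primase complex, 1.1 (0.0101) and Cdc7, the kinase that fires origins, 1.65 (0.0104). Of 31 other spindle and cytokinesis genes 18 were called higher (median 1.1), with Mxd3, Fam64a, Kif22 and Shcbp1 at the smallest p; Kif22, a motor of chromosome arms, had a log2 fold change of 1.34 (adjusted p = 0.00931). Of 33 other centromere and kinetochore genes 17 were called higher (median 0.94). Ska2, which helps kinetochores hold microtubule ends, had 53.7, 6.67, 13.3 and 10.8 CPM in Glut1Tg replicates 1 to 4, against 8.73, 50.3, 8.32, 18.4 and 23.8 CPM in WT replicates 1 to 5. Its mouse groups did not overlap (log2 fold change 2.07, edgeR adjusted p = 0.00454), nor did those of Cenpo (1.08, 0.00479), Mis18a (0.94, 0.00699), or Mis12 (1.52, 0.0106).

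For each count of mouse group calls from all 9 libraries in this paragraph, the shares over all genes tested were 13.1% called higher and 11% called lower. Condensin and cohesin genes were called higher in 9 of 22 (median 0.72): the condensin subunits Ncaph (log2 fold change 1.83, edgeR adjusted p = 0.0128), Smc2 (1.76, 0.0209) and Ncapg (1.93, 0.0214) and the cohesin acetyltransferase Esco2 (1.67, 0.0263) had the smallest p. The fold change was positive for 19 of the 22, and for 7292 of all 14817 genes tested. Smc4, with the highest mean of the list at 987 CPM, went the other way (-0.42, adjusted p = 0.195). In the mitotic entry kinases, phosphatases and cofactors 7 of 17 were called higher (median 0.95), led by Cdc25a, the phosphatase that activates cyclin-dependent kinases (1.69, edgeR adjusted p = 0.00902), Ccnf (1.97, 0.0123), Gtse1 (1.67, 0.016) and Bora, a cofactor of Aurora A (1.17, 0.0209). Of the APC/C and its regulators, which had the lowest median of these 8 lists (0.40), 6 of 20 were called higher, among them Cdc23 (0.86, edgeR adjusted p = 0.0102), Cdc16 (0.53, 0.0223), its activator Fzr1 (0.79, 0.0228) and Trip13 (1.76, 0.0314). Of the MuvB, B-Myb, E2F and pocket protein genes, 7 of 19 were called higher (median 0.66), including E2f6 (1.23, edgeR adjusted p = 0.00941), Tfdp1 (1.59, 0.0163), E2f2 (1.04, 0.0204) and the pocket protein Rbl1 (1.12, 0.0327). Of 15 G1 cyclins and inhibitors 6 were higher and 2 lower (median 0.79), and the smallest p were in Ccne1 (2.34, edgeR adjusted p = 0.00353), Ccnd3 (0.90, 0.00835), the inhibitor Cdkn2c (1.29, 0.017) and Ccnd2 (1.51, 0.0258). None of these 8 lists had a gene called between genotypes, where 0.00675% of all genes tested were called. Without Glut1Tg replicate 1 none of the lists had a gene called higher in mouse group 2, while their medians were 0.27 to 0.93. In that fit 1.44% of all genes tested were called higher.

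**Figure D5:**
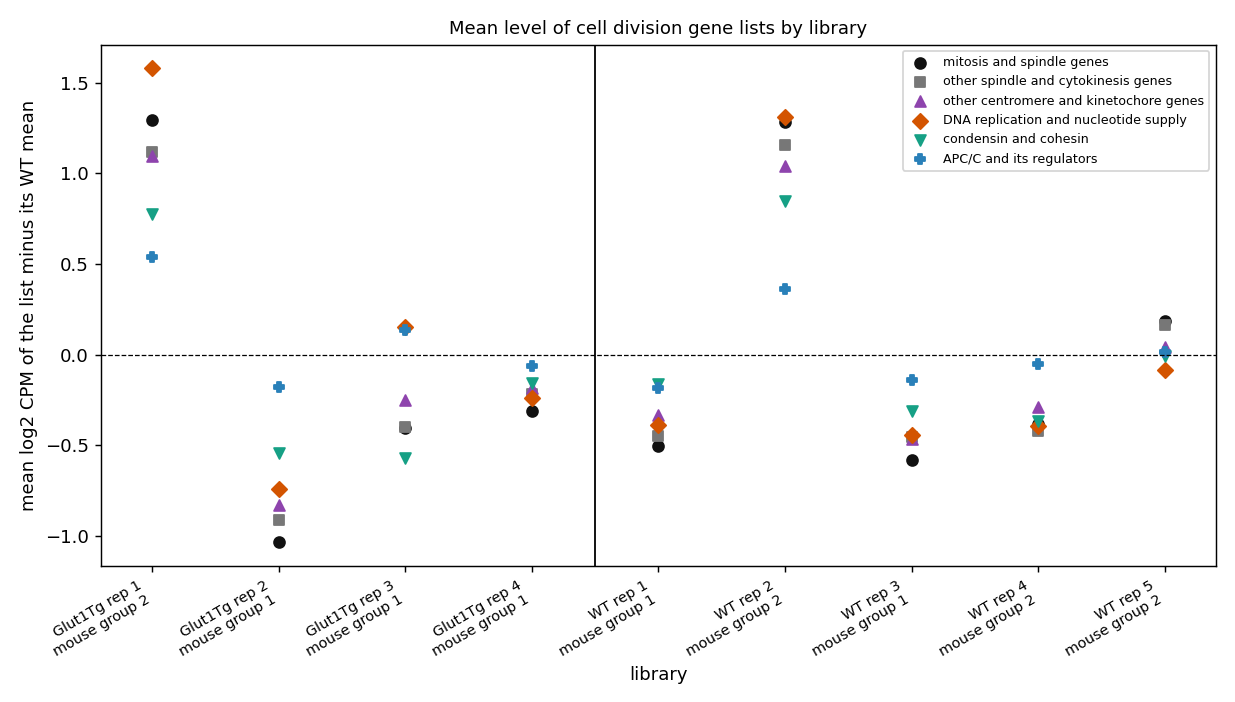
Mean log2 CPM of 6 gene lists in each library, minus the list's mean over the 5 WT libraries; Glut1Tg is left of the line and WT right. The 38 mitosis and spindle genes are at 1.29 in Glut1Tg replicate 1 and 1.28 in WT replicate 2, and at -1.03 in Glut1Tg replicate 2.

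In Glut1Tg replicate 3 the lists parted: replication genes were at 0.15 and APC/C genes at 0.14 relative to their WT means, against -0.41 for the 38 mitotic genes and -0.57 for condensin and cohesin. In WT replicate 5 the 38 mitotic genes were above their WT mean (0.19) and replication genes slightly below theirs (-0.09). These differences between lists were not tested.

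The 10 genes outside the list whose log2 CPM was closest to the mean of the 38, out of 12909 genes of at least 1 mean CPM, were Kif15, Dlgap5, Kntc1, Ncaph, Brip1, Diap3, Fancd2, Cenpi, Cdca2 and Polq, with Pearson r over 9 libraries of 0.994 to 0.998. Of those 12909 genes, 871 had r over 0.9, so such likeness was not limited to these 10 genes. It is a description in which the pair of high libraries weighs most. Over the other 7 libraries the same 10 genes had r of 0.961 to 0.994, highest in Dlgap5.

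Of the 10 T cell and regulatory T cell markers, 2 were called higher in mouse group 2 and 1 lower. Over all genes tested, 13.1% were called higher and 11% lower. The summed mast cell, myeloid, and erythroid and platelet markers were lowest where the mitotic genes were highest. Il2ra, the high-affinity interleukin-2 receptor chain, had 2959, 241, 343 and 378 CPM in Glut1Tg replicates 1 to 4, against 389.8, 2386, 319.9, 397 and 690.0 CPM in WT replicates 1 to 5. It was highest in the same pair of libraries and was called higher in mouse group 2 (log2 fold change 2.32, edgeR adjusted p = 0.0138), as was Tnfrsf18 (0.90, 0.0325), while Ctla4 was lower (-0.71, 0.0197). The other 7 markers of the T cell list were not called, and the list's median was 0.20; without Glut1Tg replicate 1 none of the 10 was called higher. The 9 mast cell and basophil markers, all with a count, summed to 91.6 to 2463 CPM in Glut1Tg and 127 to 795 CPM in WT libraries, and were lowest in Glut1Tg replicate 1 (91.6) and WT replicate 2 (127). Most of that remainder was Kit, at 86.8 and 124 CPM in those libraries, while Cpa3, the mast cell carboxypeptidase, had 3.56, 364, 1670.0 and 116 CPM in Glut1Tg replicates 1 to 4, against 151, 2.48, 286, 524 and 91.3 CPM in WT replicates 1 to 5. The 11 myeloid markers summed to 4.73 to 442 CPM in Glut1Tg and 10.1 to 38.7 CPM in WT libraries, and the 10 erythroid and platelet markers to 5.07 to 1039 and 5.76 to 286 CPM. They too were lowest in the pair of libraries where the mitotic genes were highest. Lyz2, of myeloid cells, had 206.5 CPM in Glut1Tg replicate 3 and at most 2.67 CPM in any other library. Pf4, of platelets, had 0.492, 20.7, 507 and 18.7 CPM in Glut1Tg replicates 1 to 4, against 15.1, 0.325, 36.4, 94.8 and 14.9 CPM in WT replicates 1 to 5. CD8 T cell (4 genes), B cell (6) and NK cell (5) markers summed to at most 39.1, 9.79 and 29.3 CPM, each in Glut1Tg replicate 3. Eomes, which is on both the CD8 and the NK list, gave 29.1 CPM of both sums there, and Cd8a and Cd8b1 had 2.08 and 7.63 CPM in that library, against 2.54 and 7.94 CPM in WT replicate 1. 0 genes of these other cell types were called between mouse groups, and their part in the mitotic values was not tested.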

How the data were processed

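The labels' protocols give stranded TruSeq mRNA libraries and 75 bp paired-end reads. Tools named in the submitters' processing notes are featureCounts, TopHat2, bcl2fastq and DESeq2, with build mm10; the sources used here give no versions, parameters or strand setting. The authors deposited whole-number counts per gene, not normalized, and a table of log2 values for 13700 genes, whose making is not stated and which was used for 1 alternative. The members and the other gene lists were chosen with earlier results of these data known.

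The deposited counts were fitted with edgeR 4.0.16 in R 4.3.3: filterByExpr by genotype, TMM scaling, and a quasi-likelihood test with mouse group and genotype as terms (or their interaction), with Benjamini-Hochberg adjustment over all 14817 genes and a threshold of 0.05. CPM use TMM-scaled totals, so they are relative to the other RNAs of the same library, and log2 CPM has a prior count of 2. Each SE was taken from the fold change and its F statistic, and 95% intervals follow from the SE. The procedure was also run on simulated counts. These were drawn separately for each gene and held no outlying libraries, so that run does not cover genes that move together or a pair of high libraries. Alternatives used limma 3.58.1 and DESeq2 1.42.0, other scalings and filters, left-out libraries, and subsets. Replicate pairs differed by more than sampling noise, so all 9 libraries were kept.

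Values in every library were given for a set list of members, for members past a test and for those with the widest and narrowest range, which together are all 38; from other lists up to 4 genes past the test by smallest p, otherwise the 2 with the highest mean CPM. Same-numbered replicates of the genotypes were not treated as pairs. Their deviations correlated at -0.512, -0.592, 0.226 and -0.212 for numbers 1 to 4, and at 0.728, -0.261, -0.091 and -0.134 with the mouse group difference taken out. For numbers 1, 2 and 4 the libraries are in different mouse groups, so these values cannot settle whether the numbers pair samples. Coordinates are on GRCm38, the assembly named mm10, and promoters are from RefSeq on GRCm38.p6.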

Additional observations from a re-analysis of the deposited data

Results flagged for a closer look

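Glut1Tg replicate 1 stood apart from the other 3 Glut1Tg libraries in 17 of the 38 genes, by Dixon's ratio of its gap to the next library over the whole range of the group, compared with the 95% critical value (44.7%, against 7.23% of all genes tested). The ratio was 0.849 for Ccna2, 0.877 for Plk1, 0.886 for Aurkb, 0.87 for Bub1, 0.853 for Bub1b, 0.895 for Ttk, 0.843 for Cdc20, 0.838 for Espl1, 0.859 for Nuf2, 0.849 for Kif11, 0.884 for Kif2c, 0.856 for Tpx2, 0.867 for Hmmr, 0.881 for Prc1, 0.868 for Kif20a, 0.836 for Ect2 and 0.881 for Top2a. It was the highest library in each. It is also the only Glut1Tg library of mouse group 2, so mouse group and library cannot be told apart in that gap.

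WT replicate 2 stood apart from the other 4 WT libraries in 19 of the 38 genes, by the same ratio (6.96% of all genes tested). The ratio was 0.859 for Cdk1, 0.765 for Ccna2, 0.842 for Ccnb1, 0.78 for Aurka, 0.719 for Incenp, 0.732 for Bub1, 0.852 for Mad2l1, 0.715 for Cdc20, 0.729 for Ndc80, 0.716 for Nuf2, 0.909 for Spc25, 0.771 for Kif11, 0.763 for Kif4, 0.731 for Kif2c, 0.72 for Tpx2, 0.782 for Nusap1, 0.789 for Hmmr, 0.83 for Anln and 0.814 for Ect2. It was again the highest library in each. WT replicates 4 and 5, the other WT libraries of mouse group 2, were below it in each of these genes. Chance flags about 1 in 20 groups of normal values when any library at either end counts. For a single named library at the high end, as counted here, that rate is lower. The ratio was taken on CPM without logs, and genes that move together are not separate tests.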

How the results depend on the processing

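The mouse group result depends on single libraries. The count of 33 genes called higher in mouse group 2 was 0 to 38 when 1 library was left out, 0 without both Glut1Tg replicate 1 and WT replicate 2 (median log2 fold change 0.464), 0 with the replicate numbers as a block and 0 in the WT libraries only, an alternative chosen after seeing the data. Of all genes tested, 1.38% were called higher without both, 0% with the block and 2.1% in the WT libraries only. The count of the 38 was 33 with DESeq2's size factors, 38 with no filter and with DESeq2's test, 36 with library totals, 32 with no genotype term and 24 with limma-voom. In the same order, 13.5%, 7.53%, 17.4%, 15.3%, 12.2% and 11.9% of all genes were called higher. Fewer libraries leave fewer degrees of freedom, and the cause of each change was not otherwise tested. In the genotype comparison, single genes were followed across settings only for Bub3, Plk1, Ube2c, Mki67 and Top2a. Of these, the log2 fold change changed sign for Mki67 (-0.138 to 0.428 when 1 library was left out, -0.138 without both, -0.114 in mouse group 1 only) and Top2a (-0.027 to 0.517 when 1 was left out, -0.027 without both, -0.185 with no mouse group term). Over all 38 genes, 38 genotype fold changes were positive in the main fit. Only 15 were without Glut1Tg replicate 1, 17 in mouse group 1 only and 18 with no mouse group term. Between mouse groups, where all 38 genes were followed, the sign changed without both for Cdk1 (-0.052) and Anln (-0.103). It was not settled whether the replicate numbers pair the samples. By correlation, 0 of 4 Glut1Tg libraries were closest to the WT library of the same number. For numbers 1, 2 and 4, however, those libraries are in different mouse groups. The block changed no genotype call. The genotype count was 0 in every alternative run, which says nothing of stability where none could pass. The interaction cannot be estimated without Glut1Tg replicate 1. Its size depended on other libraries too. The median interaction log2 value over the 38 genes was 1.41 (0.43 to 1.83) without WT replicate 2 and 0.51 without WT replicate 4, against 0.82 in the main fit. Mouse group 2 holds a single Glut1Tg library in each of these fits. Of 784 single-gene values under other settings, 8 changed sign, 216 no longer passed, 21 newly passed and 539 kept direction and side. These values include Bub3, Plk1, Ube2c, Mki67 and Top2a alone for the genotype comparison, and no gene for the interaction. Sign changes between genotypes are therefore undercounted among them. The spread between libraries limits these comparisons: the SD of the 38 genes' mean log2 CPM within genotype and mouse group was 0.592.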

Other observations

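Some regulators of these genes were looked at after their values were seen. Cdkn1b (p27), an inhibitor of cyclin-dependent kinases that is high in resting T cells, had 89.3, 358, 125 and 305 CPM in Glut1Tg replicates 1 to 4, against 321, 127, 325, 212 and 186 CPM in WT replicates 1 to 5. It was lowest in Glut1Tg replicate 1, followed by Glut1Tg replicate 3 and WT replicate 2, and was lower in mouse group 2 (log2 fold change -1.14, SE 0.34, edgeR adjusted p = 0.0381). Ccnd1 was the other G1 gene lower in mouse group 2 (-1.53, adjusted p = 0.0356), at 0.567 to 4.16 CPM in Glut1Tg and 0.649 to 2.45 CPM in WT libraries.

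Mybl2 (B-Myb), the partner that turns the MuvB complex into an activator, had 94.5, 16.3, 32.3 and 21.9 CPM in Glut1Tg replicates 1 to 4, against 18.7, 63.9, 23.5, 16.6 and 24 CPM in WT replicates 1 to 5. It was highest in the pair of libraries where the 38 genes were highest, but its mouse group difference did not pass (log2 fold change 1.25, SE 0.43, edgeR adjusted p = 0.0606). The MuvB core gene Lin37 was higher in mouse group 2 (0.41, adjusted p = 0.039), and Lin9 (0.43, adjusted p = 0.207), Lin52 (-0.19, 0.548), Lin54 (0.53, 0.29) and Rbbp4 (0.28, 0.315) did not pass, nor did the pocket protein Rbl2 (-0.05, 0.844).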
